A study of Mus musculus with 16 samples.

Results

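The 10 genes described here make or fill the autophagosome: Ulk1, Becn1, Atg5, the 5 ATG8-family genes Map1lc3a, Map1lc3b, Gabarap, Gabarapl1 and Gabarapl2, the cargo receptor Sqstm1 and the transcription factor Tfeb. They were taken by symbol from the count table, which holds 29695 genes, and all 10 were present and passed the filter on low counts that left 15984 genes for testing. The table covers bulk poly-A RNA from suprarenal aorta, the abdominal segment just above the renal arteries. Its 16 libraries fall into 4 groups of 4, labelled as biological replicates. KO AngII libraries came from male Vamp8-/- mice given angiotensin II (AngII), a vasoconstrictor peptide, at 1000 ng/kg/min for 5 days from a minipump under the skin. KO saline libraries came from male Vamp8-/- mice infused with saline for the same 5 days. WT AngII and WT saline libraries came from male C57BL/6 wild-type mice under the same infusions. The labels give the knockout as Vamp8-/- and name no cell type that it is limited to. They give no age and state that aortae with overt pathology were left out. Whether animals were pooled for a library is not stated in the sources used here, and p-values measure the spread between these libraries.

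Autophagy encloses cytoplasm in a double membrane, the autophagosome, and delivers it to the lysosome. The ULK kinase complex starts the process, a Beclin 1 complex makes the lipid signal on the growing membrane, and a conjugation system that includes ATG5 couples ATG8 proteins (the LC3 and GABARAP proteins) to that membrane. Receptors such as p62, the product of Sqstm1, bind ubiquitin-tagged cargo and ATG8 proteins, TFEB switches on lysosomal and autophagy genes, and VAMP8 is the lysosomal SNARE that takes part in fusing the closed autophagosome with the lysosome. In arterial wall cells the pathway is studied for its part in turnover of damaged organelles. RNA levels do not measure the lipid-coupled form of LC3, the amount of p62 protein or the rate of autophagy.

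None of the 10 genes passed the test in any comparison of genotype or infusion. Their levels were steady in most libraries, and the few large departures sat in single libraries. The library labelled KO saline replicate 1 held the highest Map1lc3a, Map1lc3b, Gabarap and Atg5, and KO AngII replicate 4 held the highest Sqstm1, Gabarapl1, Gabarapl2 and Becn1. Within the other 14 libraries the highest level of a member was 1.2 to 1.66 times its lowest, against 1.28 to 3.1 times over all 16. The libraries left out were picked for holding these extremes, so the narrower range follows in part from that choice. Atg5 in WT mice was the one case in which the libraries of 2 compared groups did not overlap.

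Total reads ran from 13284804 to 21643548 a library, and each member held at least 312 reads in every library. Vamp8 averaged 22.9 ± 5.90 CPM in KO AngII and 55.8 ± 3.67 CPM in WT AngII (SD, n = 4 each), where CPM is the read count scaled to the TMM-adjusted library size. It averaged 34.0 ± 13.2 CPM in KO saline and 51.9 ± 4.64 CPM in WT saline. The library labelled KO saline replicate 1 stood at 53.3 CPM, inside the WT range and against its label. It also had the lowest scaling factor, 0.716, which raises its CPM. Per total reads without that factor its Vamp8 level was 38.16 CPM, between 22.45 to 27.75 CPM in the other KO saline libraries and 50.96 to 63.36 CPM in the 8 WT libraries. Several values are given with and without it, mostly with KO AngII replicate 4 left out as well. All 5 smooth muscle markers (Acta2, Myh11, Tagln, Cnn1, Smtn) were detected in every library. Their summed level was 5354 to 15730 CPM in KO AngII, 8259 to 10860 CPM in KO saline, 11210 to 16670 CPM in WT AngII and 7447 to 20230 CPM in WT saline. Mitochondrially encoded genes took 10.1% to 24.3% of reads in KO AngII, 27% to 32.8% in KO saline, 9.56% to 16.3% in WT AngII and 8.33% to 17.7% in WT saline. In bulk tissue, fewer cells of a type and less RNA per cell cannot be told apart.

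The genes fell into 3 tiers of abundance once CPM was divided by transcript length in kilobases. Gabarap was the most abundant at 196 ± 43.0 CPM per kb (SD, n = 16 libraries) and was first of the 10 in 15 libraries. Map1lc3a followed at 131 ± 45.8 CPM per kb. Gabarapl1 at 92.4 ± 23.8, Sqstm1 at 91.8 ± 11.5 and Map1lc3b at 79.7 ± 9.53 CPM per kb came next. Gabarapl1 and Sqstm1 did not differ beyond their spread, since Gabarapl1 was the higher of the pair in 5 of 16 libraries. Gabarapl2 stood alone in the middle at 31.8 ± 7.34 CPM per kb, below Map1lc3b and above Tfeb in all 16 libraries. Tfeb at 11.25, Becn1 at 10.9, Ulk1 at 10.9 and Atg5 at 10.1 CPM per kb formed the low tier. Their order changed from library to library: Tfeb exceeded Becn1 in 10 of 16, Becn1 exceeded Ulk1 in 9 and Ulk1 exceeded Atg5 in 10.

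**Figure D1:**
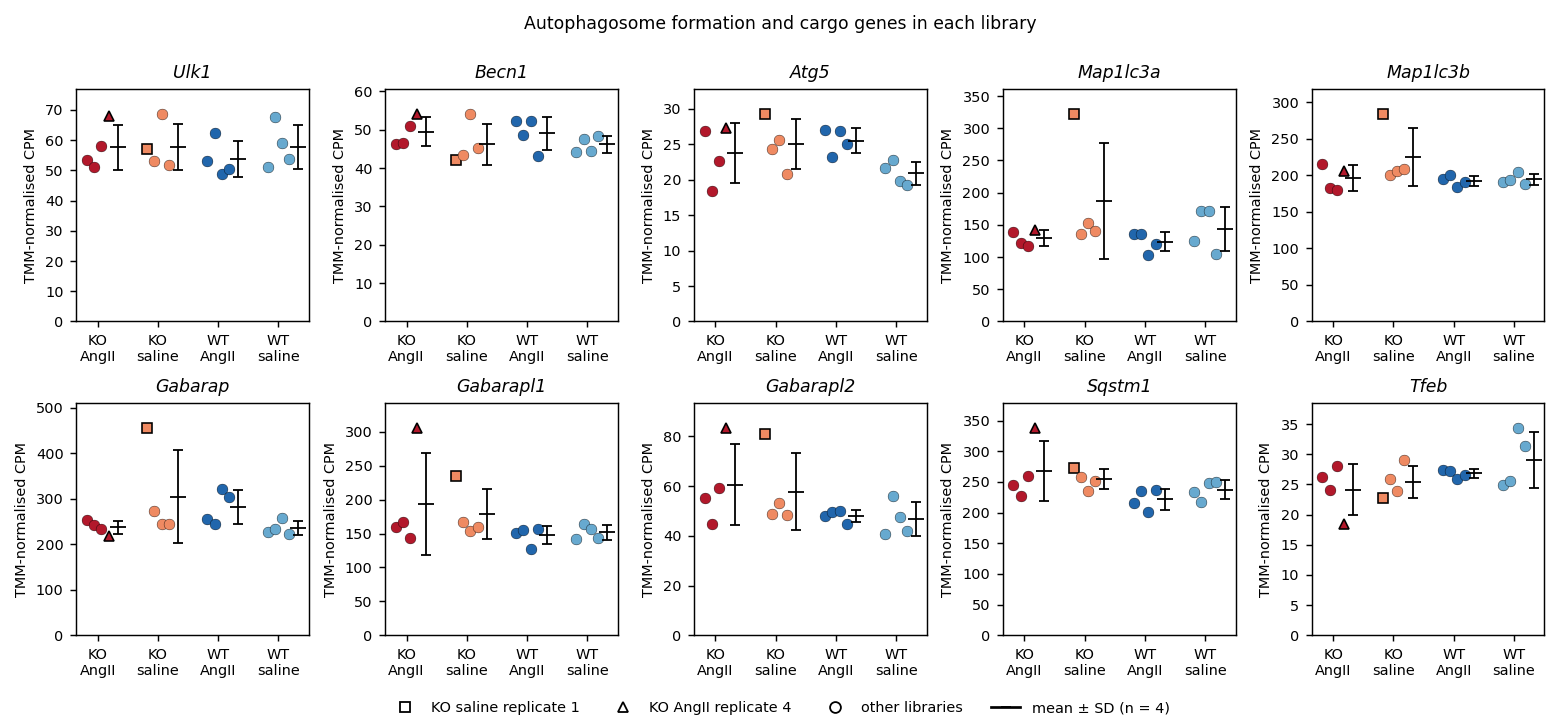
TMM-normalised CPM (vertical axis, from 0) of each of the 10 genes in the 4 groups, with 1 point a library and the mean ± SD beside each group. The square (KO saline replicate 1, as labelled) and the triangle (KO AngII replicate 4) lie far above their groups for several ATG8 genes. The remaining points of compared groups overlap, except that every WT AngII point of Atg5 lies above the WT saline points.

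Ulk1 (ENSMUSG00000029512, chromosome 5), the kinase that starts autophagosome formation, was level across the groups. Its CPM was 53.3, 51.2, 58.0 and 68.0 in KO AngII libraries, 57.1, 53.1, 68.7 and 51.7 in KO saline, 52.9, 62.2, 48.9 and 50.5 in WT AngII, and 51.1, 67.5, 59.0 and 53.7 in WT saline. The highest library of a group lay at 62.2 to 68.7 CPM and the lowest at 48.9 to 51.7 CPM, and all groups overlapped. KO AngII differed from WT AngII by a log2 fold change of 0.10 (SE 0.132, edgeR quasi-likelihood adjusted p = 0.778). The 95% intervals of the 4 pairwise comparisons allowed ratios from 0.763 to 1.31.

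Becn1 (ENSMUSG00000035086, chromosome 11) encodes Beclin 1, the scaffold of the class III PI3 kinase complexes. Its CPM was 46.4, 46.7, 50.8 and 54.1 in KO AngII, 42.2, 43.3, 54.0 and 45.2 in KO saline, 52.3, 48.7, 52.3 and 43.2 in WT AngII, and 44.2, 47.7, 44.5 and 48.4 in WT saline. No group stood apart. Becn1 was the steadiest of the 10: its SD within groups, 0.12 on the log2 scale, was smaller than that of all but 2.85% of the genes tested. KO saline differed from WT saline by -0.00055 on the log2 scale (SE 0.104, edgeR adjusted p = 0.998), with a 95% interval of -0.22 to 0.22. Over the 4 pairwise comparisons the intervals ran from 0.857 to 1.25 as ratios, so that a change of more than 1.25 times in either direction lay outside all of them.

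Atg5 (ENSMUSG00000038160, chromosome 10) encodes the protein that, joined to ATG12, directs ATG8 proteins to the membrane. Its promoter is shown because Atg5 was the one member whose groups separated and because it holds an E-box, CACGTG (capitals), the motif that TFEB and related factors bind. The sequence is the RefSeq promoter (GRCm38.p6, chr10:44268089-44268388, plus strand), from 250 bases before to 50 bases after the annotated start.
Atg5 promoter: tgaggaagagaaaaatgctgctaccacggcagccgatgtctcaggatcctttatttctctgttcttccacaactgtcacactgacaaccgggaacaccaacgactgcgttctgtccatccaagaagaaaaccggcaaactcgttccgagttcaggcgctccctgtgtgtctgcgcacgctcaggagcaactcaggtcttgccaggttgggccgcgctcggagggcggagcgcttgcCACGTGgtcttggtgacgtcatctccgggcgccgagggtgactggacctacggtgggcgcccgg
The E-box begins 14 bases before the annotated start. Searched on both strands, it occurred in 7.15% of 32851 RefSeq promoters of the same length and in 1 of the 10 promoters found for 8 members. The longer CLEAR element, which contains the E-box, occurred in 0.326% of all promoters and in none of the members'. A match is a string of letters and not a measured binding site.

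In WT mice every AngII library exceeded every saline library for Atg5. Its CPM was 27.0, 23.2, 26.8 and 24.981 in WT AngII, against 21.6, 22.8, 19.8 and 19.2 in WT saline. The 2 groups did not overlap. Among all genes tested, 6.24% showed no overlap between these 2 groups, and 3.67% none with AngII the higher. The log2 fold change was 0.29 (SE 0.139, edgeR quasi-likelihood adjusted p = 0.58, 95% interval -0.0069 to 0.58), so the difference did not pass. In KO mice the groups overlapped, with 26.8, 18.3, 22.6 and 27.3 CPM in KO AngII and 29.3, 24.4, 25.6 and 20.8 CPM in KO saline. The interaction for Atg5, which asks whether the AngII difference depends on genotype, was -0.36 (SE 0.196, edgeR adjusted p = 0.48). Without the library labelled KO saline replicate 1, which holds the highest Atg5, it was -0.27 (SE 0.19, edgeR adjusted p = 0.691). Atg5 in KO saline against WT saline was 0.26 (SE 0.139) with that library and 0.14 (SE 0.139) without it. With limma voom, run with library quality weights, Atg5 reached an unadjusted p under 0.05 in WT mice, under AngII and in the interaction. The lowest voom adjusted p of Atg5 was 0.103.

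Map1lc3a (ENSMUSG00000027602, chromosome 2) and Map1lc3b (ENSMUSG00000031812, chromosome 8) encode LC3A and LC3B, ATG8 proteins that coat the autophagosome and are its usual protein markers. Map1lc3a was at 139, 121, 117 and 142 CPM in KO AngII, 322, 135, 153 and 139.9 CPM in KO saline, 136, 135, 104 and 120.15 CPM in WT AngII, and 125, 172, 171 and 104 CPM in WT saline. The value of 322 CPM was 1.87 times the next highest of the 16, and the other libraries of the 4 groups overlapped. KO AngII differed from KO saline by -0.53 (log2, SE 0.252, edgeR adjusted p = 0.261). With KO AngII replicate 4 and the library labelled KO saline replicate 1 both left out, that difference was -0.18 (SE 0.182, edgeR adjusted p = 0.73). KO saline differed from WT saline by 0.39 (SE 0.251, edgeR adjusted p = 0.364) with all libraries, and by -0.0056 (SE 0.171, adjusted p = 0.991) without these 2.

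Map1lc3b varied less. Its CPM was 216, 182, 179 and 206 in KO AngII, 284, 200.4, 205 and 208 in KO saline, 195, 199.8, 185 and 190.2 in WT AngII, and 191, 193, 205 and 188 in WT saline. Apart from the 284 CPM, all libraries lay between 179 and 216 CPM. KO saline differed from WT saline by 0.21 (SE 0.124, edgeR adjusted p = 0.33) with all libraries and by 0.074 (SE 0.0992, adjusted p = 0.731) without the 2 libraries named above. Its SD within groups, 0.14 on the log2 scale, lay at the 5.89th percentile of the genes tested, against the 52.8th for Map1lc3a at 0.36. Map1lc3a and Map1lc3b were nonetheless each other's nearest member, with a Spearman correlation of 0.794 over 16 libraries and 0.771 over 14, a description of points that share library scaling.

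Some Map1lc3b reads may belong to, or be lost to, processed pseudogenes. Gm6055 matches the Map1lc3b transcript at 99.735% over 378 bases and held 115 to 245 reads a library, 5.27% as many as Map1lc3b in all. Gm3724, a copy of Gabarapl2, held 2 to 19 reads. Adding the reads of the 5 near-identical copies found in the count table to their parent left 0 members called in all 7 comparisons.

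The Map1lc3b promoter is shown for its match to TGACNNNGC, the core of the antioxidant response element that NRF2 binds. It is the RefSeq promoter (GRCm38.p6, chr8:121590188-121590487, plus strand), with the match in capitals.
Map1lc3b promoter: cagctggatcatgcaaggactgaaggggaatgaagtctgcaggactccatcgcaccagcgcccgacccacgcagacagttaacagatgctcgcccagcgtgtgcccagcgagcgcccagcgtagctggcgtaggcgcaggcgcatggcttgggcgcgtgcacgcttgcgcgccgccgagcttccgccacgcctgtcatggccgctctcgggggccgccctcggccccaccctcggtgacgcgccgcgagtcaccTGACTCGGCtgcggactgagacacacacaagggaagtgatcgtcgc
The match begins 4 bases after the annotated start. This core, with N for any base and both strands searched, occurred in 12.4% of all promoters and in no other member promoter found.

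Gabarap (ENSMUSG00000018567, chromosome 11) encodes the ATG8 protein that gives the GABARAP subfamily its name. Its CPM was 254, 243, 235 and 219 in KO AngII, 456, 274, 244 and 246 in KO saline, 255, 245, 322 and 304 in WT AngII, and 228, 234, 259 and 223 in WT saline. The library at 456 CPM stood alone, and WT AngII replicates 3 and 4 were next. Gabarap had the lowest unadjusted interaction p of the 10 genes: the AngII difference was -0.36 (SE 0.183) in KO and 0.26 (SE 0.182) in WT, an interaction of -0.62 (SE 0.258, edgeR unadjusted p = 0.0307, adjusted p = 0.422). Without the library at 456 CPM the interaction was -0.35 (SE 0.168, edgeR unadjusted p = 0.0587), and without KO AngII replicate 4 as well it was -0.32 (SE 0.173, edgeR unadjusted p = 0.0906, adjusted p = 0.542). In KO the AngII difference was -0.061 (SE 0.131) without the 2 libraries named above, while in WT it was 0.26 (SE 0.114, edgeR unadjusted p = 0.0418, adjusted p = 0.364).

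Gabarapl1 (ENSMUSG00000030161, chromosome 6) and Gabarapl2 (ENSMUSG00000031950, chromosome 8) encode the other GABARAP-subfamily proteins. Gabarapl1 was at 159.8, 167, 143 and 306 CPM in KO AngII, 235, 167, 154 and 160.1 CPM in KO saline, 151, 155, 128 and 156 CPM in WT AngII, and 142, 164, 157 and 144 CPM in WT saline. Gabarapl2 was at 55.3, 44.6, 59.2 and 83.5 CPM in KO AngII, 80.9, 48.9, 53.1 and 48.4 CPM in KO saline, 48.1, 49.6, 49.8 and 44.8 CPM in WT AngII, and 40.9, 55.85, 47.8 and 42.1 CPM in WT saline. For both genes the 2 highest libraries were KO AngII replicate 4 and the library labelled KO saline replicate 1, and the remaining libraries of all groups overlapped. Averaged over both infusions, the log2 difference of KO from WT was 0.32 for Gabarapl1 (SE 0.149, edgeR adjusted p = 0.196). The same average for Gabarapl2 was 0.32 (SE 0.137, edgeR unadjusted p = 0.0322, adjusted p = 0.153). Without the 2 libraries the averages were 0.084 (SE 0.0765) for Gabarapl1 and 0.12 (SE 0.0875) for Gabarapl2.

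The 2 libraries that carried the high values differed in which genes were high. Against the mean of the other 3 libraries of its group, the library labelled KO saline replicate 1 was 2.26-fold higher for Map1lc3a, 1.79-fold for Gabarap, 1.61-fold for Gabarapl2, 1.46-fold for Gabarapl1 and 1.39-fold for Map1lc3b. Among all genes tested, these 5 ratios lay at the 78.8th to 95.7th percentile of that library. The excess of the 5 ATG8 genes was 0.12 to 0.82 on the log2 scale without the scaling factor, and 0.38 to 0.78 after correction for transcript length, so it was present on all 3 scales. On the TMM scale Becn1 was 0.893 times and Tfeb 0.87 times the other 3 libraries there. After correction for transcript length, the log2 differences were 0.325 for Ulk1, 0.28 for Atg5, 0.165 for Sqstm1, 0.089 for Becn1 and -0.243 for Tfeb. Without the scaling factor these genes ran from -0.556 for Tfeb to -0.0353 for Atg5. The 6 brown adipocyte markers (Ucp1, Cidea, Elovl3, Cox7a1, Cox8b, Dio2), none of them at 0 in any library, summed to 8699 CPM in it. Elsewhere they summed to 615.8 to 3601 CPM in KO AngII, 1889 to 3208 CPM in KO saline, 1021 to 3313 CPM in WT AngII and 481.1 to 5298 CPM in WT saline. Their part in the ATG8 levels was not tested.

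KO AngII replicate 4 was 1.95-fold above the other 3 libraries of its group for Gabarapl1, 1.58-fold for Gabarapl2 and 1.39-fold for Sqstm1. Gabarap was 0.9 times and Tfeb 0.711 times the others, the lowest scaled Gabarap and Tfeb of the 16 libraries. Per total reads without the scaling factor, 1.17 here, Gabarap was 0.064 above the others on the log2 scale and Tfeb was at -0.285. Neither was the lowest of the 16 libraries on that measure. The 10 neuron and chromaffin markers (Th, Dbh, Chga, Chgb, Snap25, Syt1, Stmn2, Uchl1, Elavl4, Prph) were all detected in KO AngII replicate 4 and summed to 4490 CPM. They summed to 44.49 to 292.6 CPM in the other KO AngII libraries, 58.44 to 207.1 CPM in KO saline, 52.73 to 94.89 CPM in WT AngII and 26.75 to 84.19 CPM in WT saline, with up to 6 of the 10 at 0 in a library. Smooth muscle markers were at their lowest there, 5354 CPM. The part of these cells in the levels of the members was not tested.

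**Figure D2:**
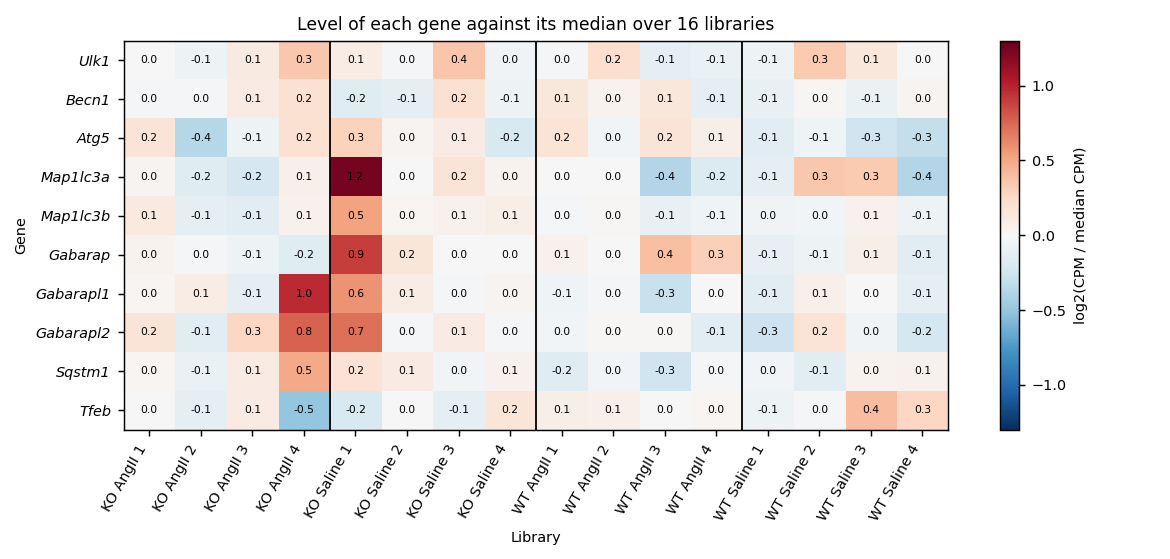
Log2 ratio of each gene's CPM (rows) to its own median over 16 libraries, for each library (columns), with red above and blue below the median. The darkest cells lie in KO AngII replicate 4 (Gabarapl1, Gabarapl2) and in the library labelled KO saline replicate 1 (Map1lc3a, Gabarap, Gabarapl2), and Becn1 and Ulk1 are pale throughout.

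Sqstm1 (ENSMUSG00000015837, chromosome 11) encodes p62, the receptor that links ubiquitin-tagged cargo to ATG8 proteins. Its promoter is shown as the one member promoter with the TATA box string TATAAA (capitals), found on both-strand search in 13.6% of all promoters. It is the RefSeq promoter on the minus strand (GRCm38.p6, chr11:50210771-50211070). The string begins 1 base before the annotated start.
Sqstm1 promoter: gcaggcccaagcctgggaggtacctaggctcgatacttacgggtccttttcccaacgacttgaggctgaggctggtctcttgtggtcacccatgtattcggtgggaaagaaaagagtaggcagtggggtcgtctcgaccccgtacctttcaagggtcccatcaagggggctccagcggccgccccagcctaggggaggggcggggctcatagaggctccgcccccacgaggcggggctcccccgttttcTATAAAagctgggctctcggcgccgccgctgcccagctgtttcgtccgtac
Sqstm1 was at 245, 227, 259.9 and 338 CPM in KO AngII, 273, 259, 236 and 251 CPM in KO saline, 216, 235, 201 and 237 CPM in WT AngII, and 234, 217, 249 and 249.6 CPM in WT saline. The 2 highest libraries were KO AngII replicate 4 and the library labelled KO saline replicate 1, and both pairs of KO and WT groups overlapped. Under AngII, KO averaged 268 ± 49.0 CPM and WT 222 ± 17.1 CPM (SD, n = 4 each), a log2 fold change of 0.27 (SE 0.131, edgeR adjusted p = 0.301, 95% interval -0.010 to 0.55). Without the 2 libraries it was 0.14 (SE 0.108, edgeR adjusted p = 0.59). Under saline, KO averaged 255 ± 15.8 CPM and WT 237 ± 15.2 CPM (log2 fold change 0.10, SE 0.131, edgeR adjusted p = 0.662). DESeq2 gave Sqstm1 an unadjusted p under 0.05 for KO against WT under AngII, with an adjusted p of 0.178. In the average KO difference DESeq2 gave Sqstm1, Gabarapl1 and Gabarapl2 an unadjusted p under 0.05. The lowest DESeq2 adjusted p there was 0.144, for Sqstm1, in a comparison where DESeq2 called 14.3% of all genes.

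The protein-coding genes whose levels followed Sqstm1 most closely over the 16 libraries were Gm9774, Cacnb4 and Ubb, with Spearman correlations of 0.88, 0.84 and 0.83. Ubb is a polyubiquitin gene and Cacnb4 a calcium channel subunit. For Map1lc3b they were Nudt9 at 0.959, Dnajc30 at 0.915 and Ttc30b at 0.903. These are the top 3 for each of the 2 members among 13892 protein-coding genes, and the points share library scaling and tissue makeup.

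Tfeb (ENSMUSG00000023990, chromosome 17) encodes the factor that switches on lysosomal and autophagy genes. Its CPM was 26.2, 24.0, 28.0 and 18.4 in KO AngII, 22.7, 25.9, 24.0 and 29.0 in KO saline, 27.5, 27.3, 25.9 and 26.6 in WT AngII, and 24.9, 25.6, 34.4 and 31.3 in WT saline. WT AngII was the tightest group and WT saline replicate 3 the highest library, and all groups overlapped. KO differed from WT by -0.15 under AngII (SE 0.142, edgeR adjusted p = 0.665) and by -0.19 under saline (SE 0.142, edgeR adjusted p = 0.418). Tfeb was the sole member below 0 in the average over both infusions, at -0.17 (SE 0.1, edgeR adjusted p = 0.295, 95% interval -0.39 to 0.041). Without the 2 libraries that average was -0.092 (SE 0.0862, edgeR adjusted p = 0.571).

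Across all 10 genes, 0 passed the edgeR quasi-likelihood test for KO against WT under AngII, where 2.03% of the 15984 genes tested were called, and 0 under saline, where 3.01% were called. For AngII against saline, 0 passed in KO (0.0501% of all genes called) and 0 in WT (0.444% called). The interaction had 0 members called and 0.0188% of all genes. Averages over both arms had 0 members called, beside 8.95% of all genes for KO against WT and 1.04% for AngII against saline. At such shares a count of 0 in 10 genes does not set the members apart from other genes. DESeq2, limma voom and a fit with the replicate number as a block also called 0 members in all 7 comparisons.

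By unadjusted edgeR p under 0.05, 0 of 10 members were found in each of the 4 pairwise comparisons, where 17.9% (KO against WT under AngII), 21.8% (under saline), 19.2% (AngII against saline in KO) and 8.8% (in WT) of all genes reached it. The count was 1 of 10 for the interaction (11.2% of all genes), 1 of 10 for the average KO difference (25.5%) and 0 for the average AngII difference (15.1%). Groups without overlap numbered 1 of 10 members for AngII against saline in WT, as given above for Atg5. There were 0 in KO (7.77% of all genes), 0 for KO against WT under AngII (9.35%) and 0 under saline (11.1%).

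The median log2 difference of KO from WT was 0.047 for the members and 0.038 for all genes under AngII, and 0.22 for the members and 0.050 for all genes under saline. The 5 ATG8 genes were all above 0 under saline, at 0.21 to 0.39. Without the 2 libraries the members' median under saline was 0.070. AngII differed from saline by a median of -0.036 in KO and -0.029 in WT for the members, and by 0.020 in KO and -0.013 in WT for all genes. Averaged over both infusions, 9 of 10 members and 55.7% of all genes had a KO difference above 0, with medians of 0.098 and 0.044, and the members' median was 0.0078 without the 2 libraries. These comparisons share libraries and are not separate evidence.

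**Figure D3:**
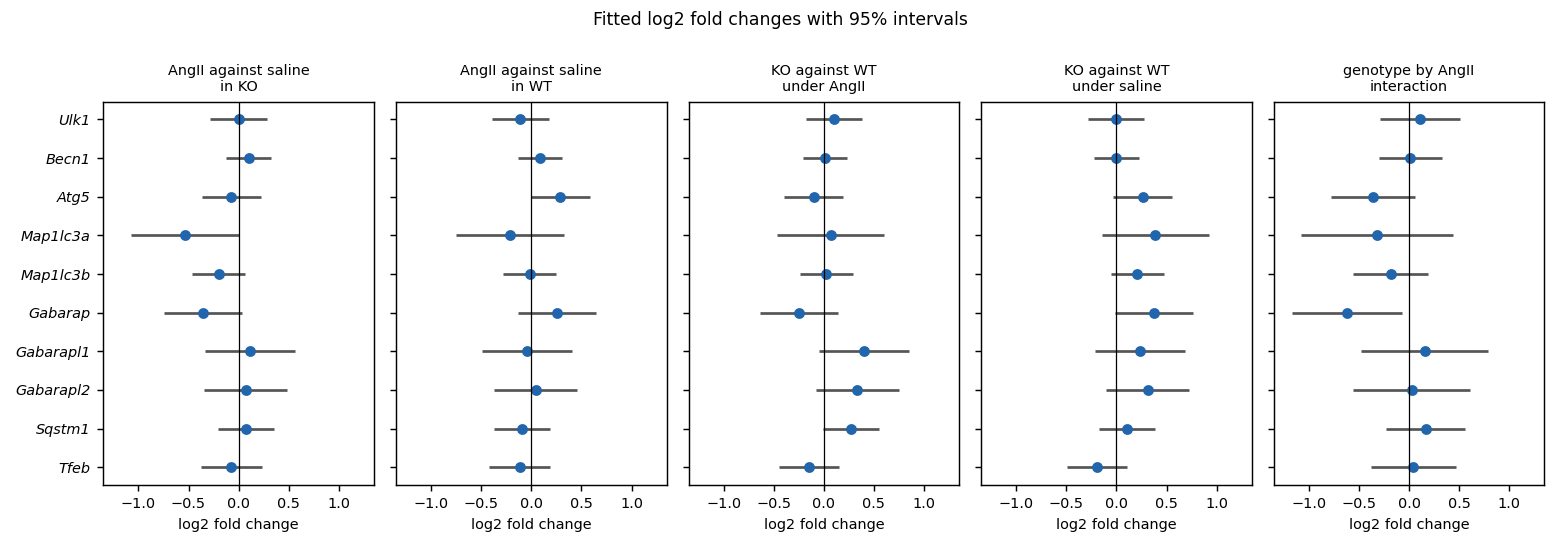
Log2 fold change (point) and 95% interval (line) of each gene from the edgeR fit of 16 libraries, for AngII against saline in KO and in WT, KO against WT under AngII and under saline, and the interaction. All intervals in the 4 pairwise panels include 0, the Becn1 intervals are among the shortest and those of Map1lc3a the longest, and the Gabarap interaction interval, -1.17 to -0.066, lies below 0 before adjustment over all genes. That interaction was -0.32 (SE 0.173) without KO AngII replicate 4 and the library labelled KO saline replicate 1.

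The intervals give the sizes of change that these libraries leave possible. Over the 4 pairwise comparisons, the 95% intervals as ratios ran from 0.727 to 1.39 for Map1lc3b, from 0.771 to 1.46 for Sqstm1, from 0.76 to 1.5 for Atg5 and from 0.709 to 1.17 for Tfeb. They were wider for Gabarapl2, from 0.775 to 1.68, and for Gabarapl1, from 0.712 to 1.8. Gabarap intervals ran from 0.595 to 1.69 and those of Map1lc3a from 0.477 to 1.9. A change of 2 times in either direction therefore lay outside the interval for 9 of the 10 genes, with Map1lc3a the exception.

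The rest of the autophagy machinery was read from lists chosen by role: 69 other genes of initiation, PI3 kinase complexes, membrane supply, conjugation, cargo receptors, fusion with the lysosome and MiT/TFE regulation. For KO against WT under AngII, 0 of 69 rose and 1 fell, with 0.995% of all genes called higher and 1.03% lower. In the average over both infusions 1 rose and 1 fell, with 4.48% of all genes called higher and 4.47% lower. In the other 5 comparisons 0 of 69 passed the edgeR test, and 7 to 15 had an unadjusted p under 0.05 (10.1% to 21.7% of the 69). The median of the 69 in the average KO difference was 0.017, against 0.044 for all genes.

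The gene that fell was Vamp8, the deleted gene and the lysosomal SNARE of this list. Its log2 fold change was -1.29 under AngII (SE 0.23, edgeR adjusted p = 0.00981) and -0.95 in the average (SE 0.162, edgeR adjusted p = 0.0027), and both passed in every other setting compared. Under saline it was -0.61 (SE 0.227, edgeR adjusted p = 0.147), and Vamp8 passed there without the 2 libraries. Of the other 15 genes of the fusion list, 0 passed in edgeR in any comparison. Other tools called 2 of them, named here for that reason. Ykt6, a SNARE, was called lower in KO under AngII by DESeq2 and voom, and in the average by voom. Of all genes, DESeq2 called 7.7% and voom 3.63% under AngII, and voom 16.8% in the average. Ykt6 was at 99.97 ± 10.7 CPM in KO AngII and 141 ± 22.1 CPM in WT AngII (SD, n = 4 each). Its edgeR log2 fold change was -0.49 (SE 0.134, edgeR adjusted p = 0.065). Neither DESeq2 nor voom called Ykt6 for KO against WT under saline. Vps39, a subunit of the HOPS tethering complex, was called lower by voom for AngII against saline in KO, where voom called 3.51% of all genes. For Vps39 edgeR gave -0.28 there (SE 0.116, edgeR adjusted p = 0.213). Rab7, which guides late endosomes and was the most abundant of them per kb, was at 261 ± 17.9 CPM in KO AngII, 257 ± 16.7 CPM in KO saline, 249 ± 8.22 CPM in WT AngII and 238 ± 12.1 CPM in WT saline (SD, n = 4 each).

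Among 12 selective autophagy receptors, Sqstm1 included, Bnip3l rose in KO in the edgeR average and 11 did not pass in edgeR. Bnip3l encodes NIX, a receptor for mitochondria. It was at 119 ± 11.1 CPM in KO AngII, 127 ± 20.8 CPM in KO saline, 105 ± 3.92 CPM in WT AngII and 94.1 ± 10.8 CPM in WT saline (SD, n = 4 each). The average log2 fold change was 0.31 (SE 0.0901, edgeR adjusted p = 0.0463). It passed in 9 of 28 other settings and was lost on leaving out any 1 of 12 of the 16 libraries, with a range of 0.22 to 0.35 and its lowest value without the library labelled KO saline replicate 1. In edgeR with all 16 libraries, the ULK, PI3 kinase, membrane supply, conjugation and MiT/TFE lists had 0 genes called in each of the 7 comparisons. Their lowest edgeR adjusted p-values were 0.113, 0.0628, 0.0815, 0.118 and 0.0577. DESeq2 and limma voom called more genes over the whole table in each of the 7 comparisons. For KO against WT under saline, DESeq2 called 7 of the 69 (10.1%, 1 higher and 6 lower) beside 8.52% of all genes, and voom 9 (13%, 1 higher and 8 lower) beside 20%. For AngII against saline in KO, DESeq2 called 5 (7.25%) beside 4.59% of all genes, and voom 4 (5.8%) beside 3.51%. In the average KO difference the shares were 5.8% of the 69 and 14.3% of all genes in DESeq2, and 10.1% and 16.8% in voom. Of the receptors, both tools called Tax1bp1 higher in the average KO difference. DESeq2 also called Tax1bp1 higher in KO under AngII, where 7.7% of all genes were called. Under saline both tools called Bnip3l higher and Ncoa4 and Wdfy3 lower in KO. For AngII against saline in KO, DESeq2 called Ncoa4 and Tax1bp1 higher, and voom Ncoa4. Voom also called Ncoa4 higher in the average AngII difference (3.43% of all genes) and Wdfy3 in the interaction (1.08%). Atg9a, the scramblase of the growing membrane, was among the genes lower under saline in both tools, at 10.46 ± 4.72 CPM in KO saline and 20.04 ± 1.14 CPM in WT saline (SD, n = 4 each). With KO AngII replicate 4 and the library labelled KO saline replicate 1 both left out, edgeR also called Atg9a lower under saline. That fit called 2.57% of all genes for KO against WT under saline. Atg9a was named after its values were seen.

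The targets of the pathway's regulators were read beside the members. Of 13 lysosomal genes that TFEB is known to activate, 0 rose and 1 fell in KO under AngII (1.03% of all genes called lower), and 0 rose and 2 fell in the average (4.47% called lower). Hexa, a lysosomal hexosaminidase subunit, was at 93.8 ± 8.54 CPM in KO AngII and 147 ± 36.2 CPM in WT AngII (SD, n = 4 each), a log2 fold change of -0.65 (SE 0.148, edgeR adjusted p = 0.0385). It passed in 13 of 29 other settings and was lost without any 1 of 9 libraries, and was at its smallest, -0.48, without WT AngII replicate 4. The averaged value, -0.39 (SE 0.104, edgeR adjusted p = 0.0309), passed in 20 of 28. The 5 macrophage markers (Adgre1, Csf1r, C1qa, Mrc1, Cd68), none at 0, summed to 103.2 to 141.9 CPM in KO AngII and 134.4 to 374.8 CPM in WT AngII, and their part in Hexa was not tested. Ctsa, the protective protein cathepsin A, was at -0.34 in the average (SE 0.0984, edgeR adjusted p = 0.0429) and passed in 14 of 28, with a loss without any 1 of 11 libraries. The median of the 13 was -0.082 under AngII and -0.065 in the average, against 0.038 and 0.044 for all genes. DESeq2 and voom called Glb1 lower in the average. So did edgeR without KO AngII replicate 4 and the library labelled KO saline replicate 1, a fit that kept Hexa but not Ctsa. DESeq2 also called Ctsa lower under AngII, and voom called Mcoln1 higher under saline. Over all genes DESeq2 called 14.3% in the average and 7.7% under AngII, and voom 16.8% in the average and 20% under saline.

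NRF2 is a factor held in check by KEAP1, which p62 can bind. Of 8 genes that NRF2 activates, 1 rose in KO under AngII (0.995% of all genes called higher). The average also had 1 rise (4.48% called higher), and 0 fell in either. The gene was Gclc, the catalytic subunit that limits glutathione synthesis. It was at 37.5 ± 10.1 CPM in KO AngII and 24.0 ± 1.36 CPM in WT AngII (SD, n = 4 each), a log2 fold change of 0.65 (SE 0.159, edgeR adjusted p = 0.0495). It passed in 8 of 29 other settings, was lost without any 1 of 14 libraries, and was 0.42 without KO AngII replicate 4 (edgeR adjusted p = 0.0942). In the average it was 0.39 (SE 0.112, edgeR adjusted p = 0.0436) and passed in 12 of 28, with a loss without any 1 of 12 libraries. The median of the 8 was 0.244 under AngII, 0.448 under saline and 0.345 in the average, against 0.038, 0.050 and 0.044 for all genes. Above 0 were 7, 6 and 7 of the 8, beside 54.9%, 54.4% and 55.7% of all genes. Without KO AngII replicate 4 and the library labelled KO saline replicate 1, 7 of the 8 were tested and their medians were 0.13, 0.276 and 0.196. The remaining gene did not pass the filter on low counts in that fit. It does count in the medians of the 8 and in the numbers above 0. DESeq2 also called Gclm higher in the average, where it called 14.3% of all genes. Voom called Gclm and Srxn1 higher under saline, where it called 20% of all genes.

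**Figure D4:**
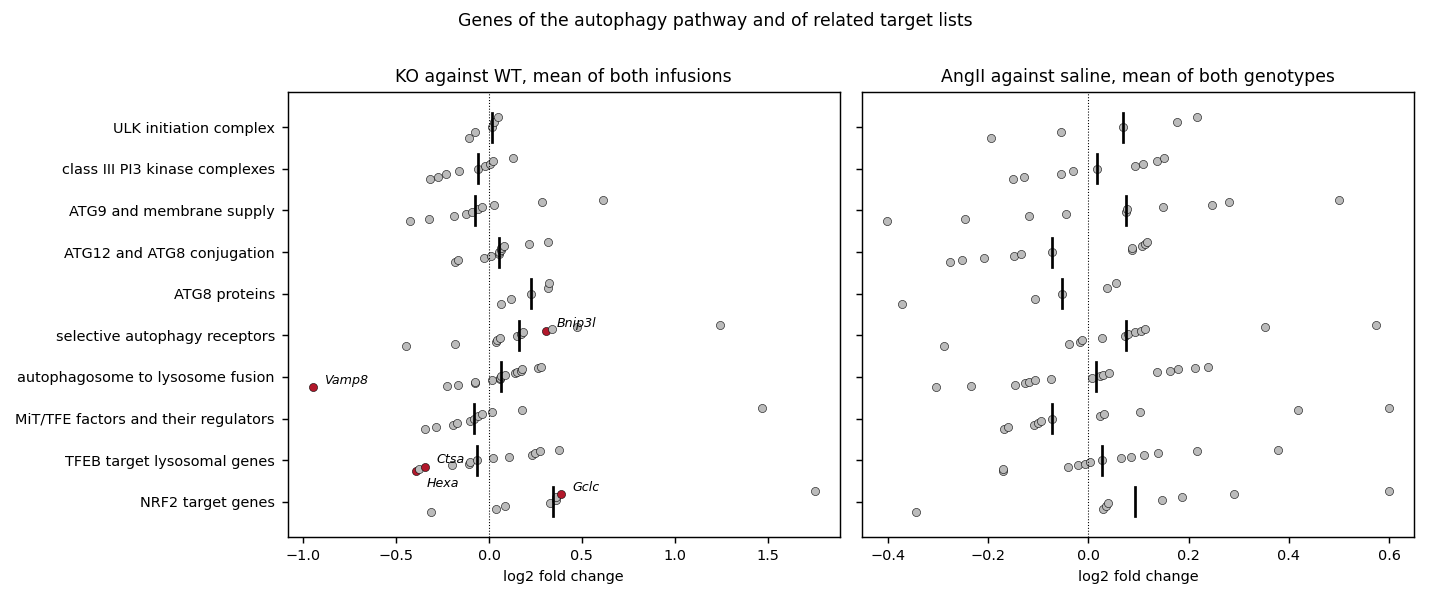
Log2 fold change of each gene (point) of 10 lists for KO against WT (left) and AngII against saline (right), each averaged over the other factor, with the list median as a vertical bar and genes with an edgeR adjusted p under 0.05 in red and named. Vamp8, Bnip3l, Hexa, Ctsa and Gclc are the red points on the left, none is red on the right. The list medians on the left run from -0.081 (MiT/TFE factors) to 0.345 (NRF2 targets), and on the right from -0.072 to 0.093.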

How the data were processed

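The authors deposited unnormalized read counts: a whole number for each gene in each of 16 libraries. The build named is GRCm39, and the submitters' processing notes name DESeq2 1.20.0, featureCounts 1.5.0-p3 and HISAT2 2.0.5. Not given in the sources used here are the strand setting, the handling of multi-mapping reads, and whether both genotypes were counted in 1 run. The source of reads shared with pseudogene copies, or with genes overlapping a member on the other strand, is therefore uncertain. The overlapping partners Mrnip, 1700101I11Rik and Cntd1 held 251, 52 and 47 reads in all. Zcchc14, which shares 58 bases with Map1lc3b, held 22793 reads, against 51462 for Map1lc3b.

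From these counts, genes were filtered by edgeR's default (15984 of 29695 kept), scaled by TMM and tested by quasi-likelihood F tests in edgeR 4.0.16 under R 4.3.3, in 1 fit of 16 libraries with 4 group means, two-sided. Genes with an adjusted p under 0.05 (Benjamini-Hochberg, over all genes tested) were called. The SE is the absolute log2 fold change over the square root of F, and 95% intervals use the fit's degrees of freedom. The fit and its scripts were run on simulated data as a check of the code. Those data had a smaller spread than these libraries and no outlying library. They do not show how small a change could be found here. The counting error at the lowest count of a member was at most 5.66%, which covers counting error only.

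Transcript lengths and chromosomes came from GRCm38, which held 28378 of the gene identifiers, and copies from blastn 2.17.0 at 95% identity over 200 bases or more. Promoters came from RefSeq (GRCm38.p6), where 8 of 10 members matched. No other coordinates are printed, since the builds differ.

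All 10 members are described, with other list genes named if called in any comparison or most abundant per kb in a list, and the 3 genes most like Sqstm1 and Map1lc3b. The members, lists and tests were chosen with earlier results of these data known. Alternatives in scaling and filter were RLE, total counts, total counts without mitochondrial genes, no filter and a filter of 1 CPM in 4 libraries. Other fits were DESeq2 1.42.0, limma voom (limma 3.58.1), a replicate block, a length offset, and that block and offset together. Voom was run throughout with quality weights, which give each library its own weight. The rest were added copy reads, only the groups compared, 2 libraries left out and each library left out.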

Additional observations from a re-analysis of the deposited data

Results flagged for a closer look

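Of 40 sets of 4 libraries (10 genes in 4 groups), 6 held a library whose gap to the nearest of the others exceeded Dixon's 95% critical share of the set's range, and chance alone gives about 1 in 20. The sets share libraries, and over all genes 13.5% of KO AngII, 10.9% of KO saline, 5.04% of WT AngII and 6.17% of WT saline sets held such a library. In KO saline, 5 of these were the library labelled replicate 1: Map1lc3a at 322.1 CPM (135.37 to 152.77 CPM in the other 3), Map1lc3b at 283.8 CPM (200.36 to 208.48), Gabarap at 456.3 CPM (243.77 to 273.89), Gabarapl1 at 234.6 CPM (153.82 to 167.48) and Gabarapl2 at 80.92 CPM (48.408 to 53.124). Over all genes tested, 6.11% stood out high in this library by the same measure, and the 5 genes' ratios to the other 3 libraries lay at the 78.8th to 95.7th percentile there. It is the library whose scaled Vamp8 level goes against its label and whose brown adipocyte markers were the highest of the 16. The sixth was Gabarapl1 at 306.0 CPM in KO AngII replicate 4, against 143.24 to 167.41 CPM in the other 3. Of all genes, 7.85% stood out high there. It is the library with the highest neuron and chromaffin markers. The part of these cells, and of the scaling, in the 6 values was not tested.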

How the results depend on the processing

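With a scaling to total counts and no TMM factor, the median of all genes shifted by 0.27 for AngII against saline in KO, -0.33 for KO against WT under saline, 0.35 for the interaction and -0.155 for the average KO difference. Only there was a member called: Tfeb for KO against WT under saline (-0.52, edgeR adjusted p = 0.0445), a count of 1 against 0. Values that turned direction by more than 1 SE under this scaling were Map1lc3b 0.093, Atg5 0.21, Ulk1 0.27 and Tfeb 0.18 for AngII in KO; Map1lc3b -0.14, Sqstm1 -0.24, Gabarapl1 -0.11, Gabarapl2 -0.040 and Atg5 -0.076 for KO under saline; Map1lc3a 0.067 and Map1lc3b 0.18 for the interaction. In the average AngII difference they were Map1lc3b 0.0017, Sqstm1 0.093 and Ulk1 0.049, and in the average KO difference Map1lc3b -0.050, Gabarap -0.12, Becn1 -0.14, Atg5 -0.081 and Ulk1 -0.093. The shift of all genes is part of that scaling.

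A length offset turned Ulk1 to 0.13 under saline (0.14 with the replicate block) and, with the block, the Map1lc3a interaction to 0.043. Voom turned the Ulk1 interaction to -0.080 and the average KO difference of Atg5 to -0.031. The cause was not tested. With KO AngII replicate 4 and the library labelled KO saline replicate 1 both left out, Map1lc3a was -0.0056 for KO under saline and Gabarap 0.098 for average AngII.

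Leaving out 1 library, the ranges for AngII in KO were -0.071 to 0.14 for Sqstm1, -0.20 to 0.27 for Gabarapl1 and -0.13 to 0.28 for Gabarapl2, each turned by KO AngII replicate 4. Map1lc3a ranged from -0.040 to 0.52 for KO under saline, from -0.45 to 0.076 in the interaction and from -0.0022 to 0.29 in average KO, and Gabarap from -0.098 to 0.085 in average AngII and from -0.10 to 0.11 in average KO, each turned by the library labelled KO saline replicate 1. Gabarapl1 ranged from -0.17 to 0.32 in the interaction and from -0.12 to 0.12 in average AngII, turned by KO AngII replicate 4. No member was called in any of these fits. Over 29 settings, 159 of 2000 values changed sign, 123 of them within 1 SE. Of the 70 member values in the main fit, 42 changed sign in at least 1 setting.

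Counts over all genes depended on the settings. For AngII in KO there were 8 called, with 4 to 734 in other settings and 6 to 32 with 1 library left out, and in WT 71, with 20 to 280 and 3 to 115. For KO against WT there were 324 under AngII, with 102 to 1230 and 100 to 845, and 481 under saline, with 203 to 3197 and 105 to 1744. The interaction had 3, with 2 to 173 and 2 to 12, the average KO difference 1431, with 1036 to 2691 and 691 to 2156, and the average AngII difference 166, with 103 to 666 and 42 to 252.

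Replicate numbers showed no clear pairing of the libraries. Same-numbered deviations correlated at -0.462 to 0.471 (median -0.036), with 8 of 24 over 0.1. Those with different numbers correlated at -0.496 to 0.408 (median -0.016), with 28 of 72 over 0.1. Of the 16 libraries, 6 correlated best with their own number. The replicate block called 0 members, and under it alone no member's value turned direction by more than 1 SE. Gclc and Hexa under AngII were lost under it (edgeR adjusted p = 0.0786 and 0.0719), as were Bnip3l, Gclc and Hexa in the average (0.0801, 0.0611 and 0.0562). Depth limits precision most for Atg5, to a counting error of at most 5.66%.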

Other observations

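Within the ATG8 family the split among the 5 genes was compared by taking each as a share of their summed CPM per kb. Gabarap held 34.7% ± 4.80 in KO AngII, 36.6% ± 1.55 in KO saline, 41.2% ± 4.95 in WT AngII and 35.65% ± 2.12 in WT saline (SD, n = 4 each). The share of Map1lc3a was 22.8% ± 0.988 in KO AngII, 26.6% ± 3.64 in KO saline, 22.04% ± 2.93 in WT AngII and 25.9% ± 3.64 in WT saline. Gabarapl1 held 20.4% ± 5.53 in KO AngII and 16.04% to 17.03% in the mean of the other groups. KO AngII replicate 4 alone held 28.55%, and the other 3 libraries of that group 16.93%, 19.17% and 16.98%. Map1lc3b held 14.8% to 15.7% in the mean of each group. Gabarapl2 was the smallest, at 6.99% ± 1.29 in KO AngII and 5.66% to 5.68% in the mean of the other groups. Shares of a sum are tied to one another, and the differences were not tested.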
